A study of Mus musculus with 20 samples.

Results

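Voltage-gated sodium channels carry the inward current that starts the action potential of heart muscle, skeletal muscle and nerve. Each channel is built of a large pore-forming alpha subunit and smaller beta subunits, which cross the membrane in a single span, carry an immunoglobulin-like fold outside the cell and tune how the pore opens, closes and reaches the surface. Described here are 6 genes of this family, named by symbol in advance and found as 6 of the 34291 rows of the deposited count table: the beta subunits Scn4b, Scn2b and Scn3b and the alpha or alpha-like subunits Scn4a, Scn7a and Scn10a. Of these, 5 passed the filter on low counts and were tested among 13940 genes, and Scn2b did not pass.

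RNA came from whole frozen hearts of C57BL/6 mice, 10 on a rapamycin diet (14 ppm) and 10 age-matched animals on a control diet. Rapamycin blocks mTOR, a kinase through which nutrients drive growth. The mice entered the experiment aged 24 months, ate their diet for 3 months and were 27 months old at collection. No young group and no genetic change is part of the design, and the sex of the animals is not given in the sources used here. Libraries held 7039514 to 12458309 counts, and a library is called here by diet group and sample number. Levels are given in normalised CPM, the share of a library's reads on the usual CPM scale, with its total adjusted by TMM. TMM is a factor that balances the composition of libraries. Levels summed over a list of genes are plain CPM, without that factor.

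The library of control 19 stood apart before any comparison. It held 28091 summed CPM of 5 lung transcripts, against a median of 1.68 over the 20 libraries, and its mean level of 14 cardiomyocyte markers was 10.1 on the log2 CPM scale, against 11.4 to 11.8 in the other controls and 11.5 to 12 with rapamycin. Far less was seen in control 1 (363 CPM), rapamycin 15 (126) and control 20 (64.2). All 14 cardiomyocyte markers passed the filter in these hearts, which fits the tissue on the label. Results are therefore given with and without control 19.

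Scn4b transcripts were higher in hearts of rapamycin-fed mice, and the other subunits tested did not pass the threshold. Of the 5 tested genes 1 rose and none fell at an adjusted p under 0.05, where 0.689% of all genes tested were called higher and 2.68% lower (3.36% in all). Without control 19 the count was also 1, with 1.05% of genes higher and 2.33% lower (3.38% in all). The diet groups overlapped for each of the 5, as for nearly all genes tested, of which 0.0717% had groups that did not overlap. In bulk tissue, fewer cells of a type and less RNA per cell cannot be told apart.

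**Figure D1:**
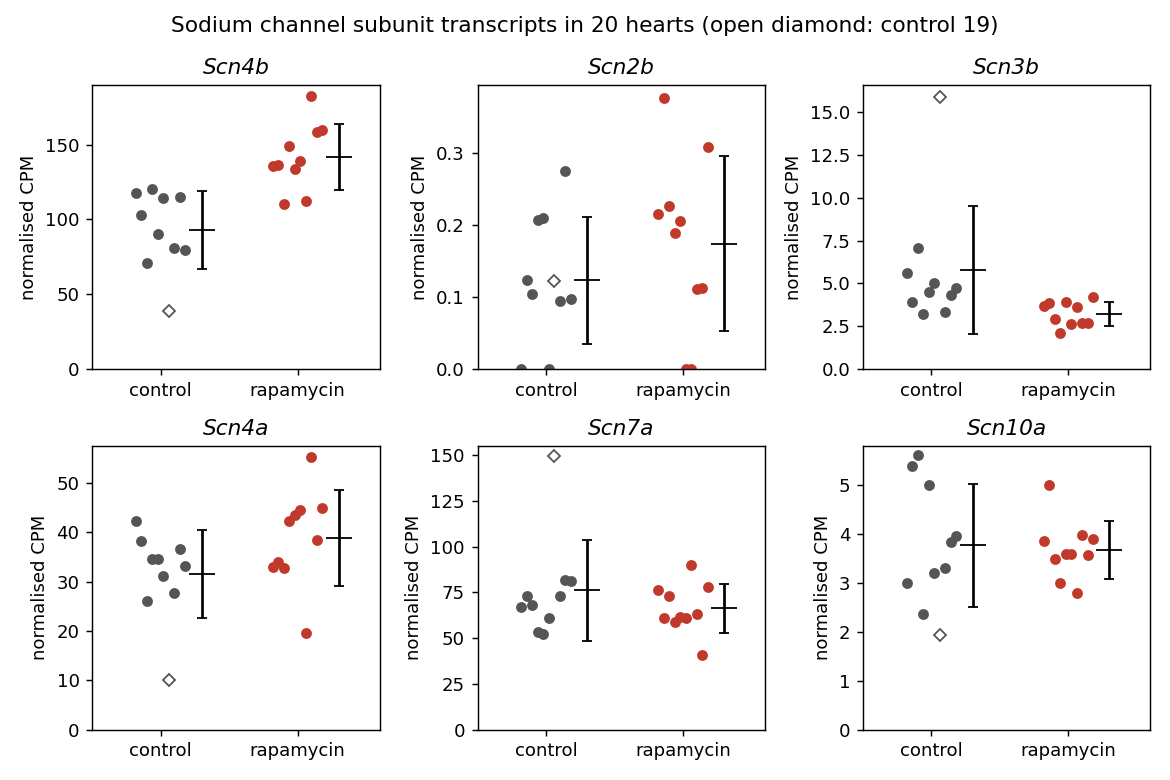
Normalised CPM of the 6 subunits in each heart, by diet, each panel with its own linear axis from 0; points are libraries, the open diamond is control 19, and bars are mean ± SD (n = 10 per group). Scn4b lay higher with rapamycin in 8 of 10 libraries than in any control, while control 19 was the lowest library for Scn4b, Scn4a and Scn10a and the highest for Scn3b and Scn7a.

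Scn4b encodes the beta-4 subunit, which is joined to the alpha subunit by a disulfide bond and is known for the tail that can block the open pore and give a resurgent current on repolarisation. In control hearts it stood at 38.5 normalised CPM at the lowest (control 19), 96.4 at the median and 120 at the highest (control 13). With rapamycin the lowest was 111 (rapamycin 15), the median 138 and the highest 183 (rapamycin 6). The groups overlapped through rapamycin 15 and rapamycin 5 (112 CPM) only, which lay below controls 1, 13, 17 and 20, while 8 rapamycin libraries lay above every control. All 10 rapamycin libraries lay above the control median, and 6 of 10 controls lay below every rapamycin library.

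Scn4b averaged 93.0 ± 26.3 normalised CPM on the control diet and rose to 142 ± 21.9 on rapamycin (SD over 10 hearts each), a log2 fold change of 0.61 ± 0.15 (SE, adjusted p = 0.0319 by edgeR) or 1.52-fold, and it ranked 258 among the genes tested by p. Without control 19 the fold was smaller and its error smaller too, at 0.52 ± 0.11 (adjusted p = 0.0119 by edgeR), from a control mean of 99.1 ± 19.1 CPM (SD, n = 9). Without all 4 libraries with lung transcripts it was 0.63 ± 0.11 (0.0146). Leaving out 1 library at a time gave 0.52 to 0.66 with adjusted p from 0.0119 to 0.0640, and the call was kept in 12 of 20 such fits. It was lost without any 1 of rapamycin 4, 6, 9, 12 or 18 or controls 2, 7 or 11.

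None of 14 cardiomyocyte markers was called with 20 libraries, and 1 was without control 19. All 14 had log2 fold changes above 0, with a median of 0.30 against -0.01 over all genes tested, and of 0.22 without control 19. The groups overlapped in the mean level of these markers. With the mean level of these markers as a covariate, Scn4b stood at 0.33 ± 0.10 (adjusted p = 0.122 by edgeR), or at 0.35 ± 0.11 (0.158) when control 19 was left out as well. Among all genes tested, 71 were called with the covariate against 469 without it, and 23 against 472 when control 19 was left out. Scn4b relative to the markers, as a log2 ratio within a library, averaged -4.95 ± 0.218 on the control diet and -4.65 ± 0.201 on rapamycin (SD over 10 hearts each), so the mean difference in ratio was 0.30 and the groups overlapped, with 2 rapamycin libraries above every control. How far cardiomyocyte content takes part in the difference was not tested beyond these values.

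**Figure D2:**
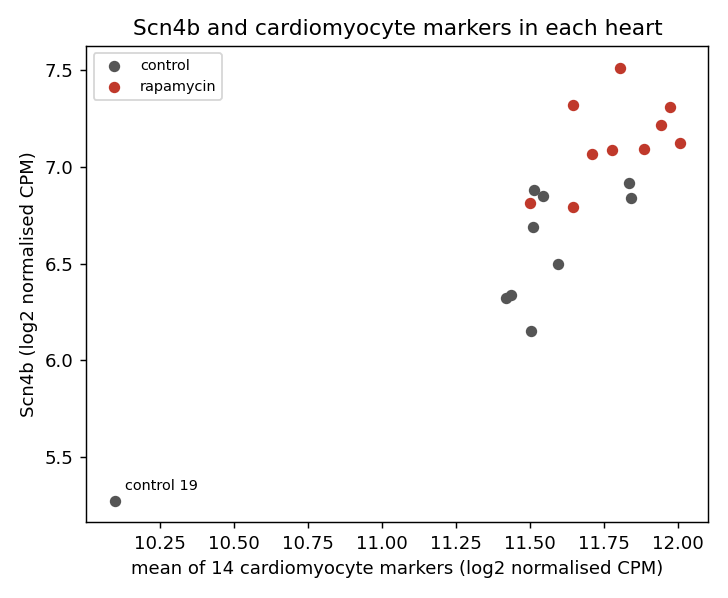
Scn4b against the mean of 14 cardiomyocyte markers in each heart, both in log2 normalised CPM, coloured by diet. Control 19 lies far to the lower left at 10.1 on the horizontal axis, and 8 of 10 rapamycin hearts lie above every control on the vertical axis.

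Scn2b, the gene next to Scn4b on chromosome 9, encodes beta-2, the other subunit held to the pore by a disulfide bond. It was nearly absent from these libraries, with 28 reads in all, 12 in controls and 16 with rapamycin, from 0 to 3 per library and with 4 libraries at 0, where a count of 0 allows up to 3. Its mean log2 CPM differed by 0.18 between the groups (2-sided permutation test over the 20 libraries, p = 0.381), and an edgeR fit without a filter gave 0.44 ± 0.53 (adjusted p = 0.681), so no difference was detectable at this depth. RefSeq places Gm10684 over part of Scn2b, and reads of overlapping genes may not be told apart, as the strand setting of the counting is unknown. The windows before the starts of these neighbours are shown because of their levels. Among the 6 subunits, Scn4b was the most abundant per base and Scn2b the least abundant. The windows are from RefSeq (GRCm38.p6, both on the plus strand, 250 bases up to the start, 5′ to 3′, with matches to the E-box CANNTG in capitals).
Scn4b chr9:45138374-45138623: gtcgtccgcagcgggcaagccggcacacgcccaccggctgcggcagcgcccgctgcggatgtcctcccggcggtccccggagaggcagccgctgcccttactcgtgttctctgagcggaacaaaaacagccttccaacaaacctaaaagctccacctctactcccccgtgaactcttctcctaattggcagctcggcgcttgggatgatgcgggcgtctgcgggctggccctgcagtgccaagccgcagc
Scn2b chr9:45117626-45117875: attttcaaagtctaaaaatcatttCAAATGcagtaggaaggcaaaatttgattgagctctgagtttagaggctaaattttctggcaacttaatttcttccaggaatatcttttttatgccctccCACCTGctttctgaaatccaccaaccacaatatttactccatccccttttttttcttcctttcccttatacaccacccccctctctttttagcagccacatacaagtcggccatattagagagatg

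The Scn4b window was 66.0% G or C with 23 CpG, more CpG than in 87.0% of 27025 gene windows of that length. That of Scn2b was 38.4% G or C with 1 CpG, and 8.3% of windows had fewer. Both strands were searched for 6 motifs: the E-box CANNTG (in 66.0% of all windows), GATA as AGATAA (10.3%), TATAAA (13%), the GC box GGGCGG (32.9%), forkhead as GTAAACA (3.1%) and T-box as AGGTGTG (5.1%). The Scn4b window held none of these letters, and that of Scn2b held 2 E-boxes and no other match. Of the 6 genes 5 had an entry in the sequence table.

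Scn3b encodes beta-3, a subunit bound to the pore without a disulfide bond and found in nerve and heart. In control hearts it ranged from 3.19 normalised CPM (control 13) over a median of 4.61 to 15.9 (control 19), with 7.08 in the next highest, control 11. With rapamycin it ranged from 2.07 (rapamycin 18) over 3.28 to 4.20 (rapamycin 9). All 10 rapamycin libraries lay below the control median, 5 of them below every control, and 7 controls lay above every rapamycin library. Its counts were low, at 22 to 131 reads per library.

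Scn3b averaged 5.76 ± 3.74 CPM on the control diet and 3.22 ± 0.713 on rapamycin (SD over 10 hearts each), a log2 fold change of -0.83 ± 0.25 (SE, adjusted p = 0.0649 by edgeR) that missed the threshold. Without control 19 the value was -0.52 ± 0.16 (0.0702), and without the 4 libraries with lung transcripts -0.47 ± 0.18 (0.175). The call turned on the method: DESeq2 put Scn3b past the threshold (-0.82 ± 0.25, adjusted p = 0.0273), as did edgeR without scaling factors (-0.98 ± 0.28, 0.0354) and edgeR without control 13 (adjusted p = 0.0499). With the cardiomyocyte level as a covariate Scn3b stood at -0.30 ± 0.16 (adjusted p = 0.424 by edgeR), or at -0.34 ± 0.18 (0.368) when control 19 was left out as well. Scn4b and Scn3b were both among the 700 genes of the authors' deposited table of CPM, and no other of the 6 genes was. The authors' label for that set reads DE genes, the usual short form for differentially expressed. Which test and threshold lie behind the label is unknown, so Scn3b could not be compared with the authors' call on equal terms.

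Scn4a is the pore-forming subunit of adult skeletal muscle, where it fires the muscle action potential. In control hearts it stood at 10.1 CPM (control 19) at the lowest, 33.9 at the median and 42.3 (control 1) at the highest, and with rapamycin at 19.7 (rapamycin 5), 40.3 and 55.3 (rapamycin 6). The groups overlapped widely, and 4 rapamycin libraries lay above every control. The fold change was 0.30 ± 0.18 (SE, adjusted p = 0.352 by edgeR), or 0.20 ± 0.13 (0.444) without control 19, and -0.03 ± 0.15 (0.954) with the cardiomyocyte level as a covariate. Of 14 skeletal muscle markers 6 passed the filter, and none of these was called (median -0.19, or -0.20 without control 19). The fast myosin heavy chains were at or near 0, Myh4 with no read in any library and Myh1 and Myh2 with at most 4 and 2. Only Myl1, a myosin light chain, and the skeletal actin Acta1 were well detected, at 63.0 ± 19.1 and 148 ± 113 CPM in controls (SD over 10 hearts). On rapamycin they stood at 49.0 ± 8.96 and 102 ± 47.0 CPM. The remaining tested markers were low, averaging from 1.88 CPM (Tnni2) to 3.05 CPM (Casq1) in controls. These genes were named after their values were seen. The 14 summed to 108 to 494 CPM in controls and 117 to 237 CPM with rapamycin.

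Scn7a encodes an alpha-like protein that senses the sodium concentration outside the cell and lacks the voltage response of its relatives. Like Scn3b it was far higher in control 19, at 150 normalised CPM, than in the other controls (52.2 to 81.5). The control median was 70.7, and with rapamycin the lowest was 41.0 (rapamycin 8), the median 62.2 and the highest 89.7 (rapamycin 5). Its fold change was -0.20 ± 0.16 (SE, adjusted p = 0.496 by edgeR) with control 19 and -0.03 ± 0.12 (0.937) without it, so most of the difference rested on that library. With the cardiomyocyte level as a covariate it was 0.16 ± 0.09 (0.461), a change of sign.

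Schwann cells and fibroblasts are among the cells in which Scn7a can be found. Of 10 tested Schwann cell markers 1 fell, the myelin enzyme Cnp (-0.66 ± 0.15, adjusted p = 0.0270 by edgeR, 0.0307 without control 19), and 5 values lay above 0 and 5 below. The median was 0.00 with control 19 and 0.18 without it. Cnp missed the threshold once the 4 lung-transcript libraries were removed (adjusted p = 0.0689 by edgeR), with the cardiomyocyte covariate (0.159), and without any 1 of rapamycin 4, 6, 12 or 18. Of 10 fibroblast markers none was called, with a median of -0.10 with and without control 19. In control 19 the endothelial level was 7.64 on the log2 scale, against 6.96 to 7.12 in the other controls, and the Schwann cell level was 3.21, against 2.37 to 2.90. Their part in the Scn7a level of that library was not tested.

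Scn10a is a pore-forming subunit best known from pain-sensing neurons, and its locus is linked to conduction in the human heart. Counts were low, at 16 to 54 reads per library. Control hearts ranged from 1.94 CPM (control 19) over 3.58 to 5.62 (control 11) and rapamycin hearts from 2.80 (rapamycin 5) over 3.59 to 5.00 (rapamycin 14), so the rapamycin group lay inside the control range. The fold change was -0.04 ± 0.17 (SE, adjusted p = 0.923 by edgeR), or -0.11 ± 0.15 (0.767) without control 19. Of 14 neuronal markers 4 passed the filter and none was called (median -0.13). All 14 summed to 29.3 to 54.7 CPM in controls, highest in control 19, and to 23.2 to 42.8 CPM with rapamycin. The mean log2 CPM of the 4 tested was instead lowest in control 19, at 2.31. Slc18a3, the acetylcholine transporter of cholinergic neurons, had no read in any library.

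**Figure D3:**
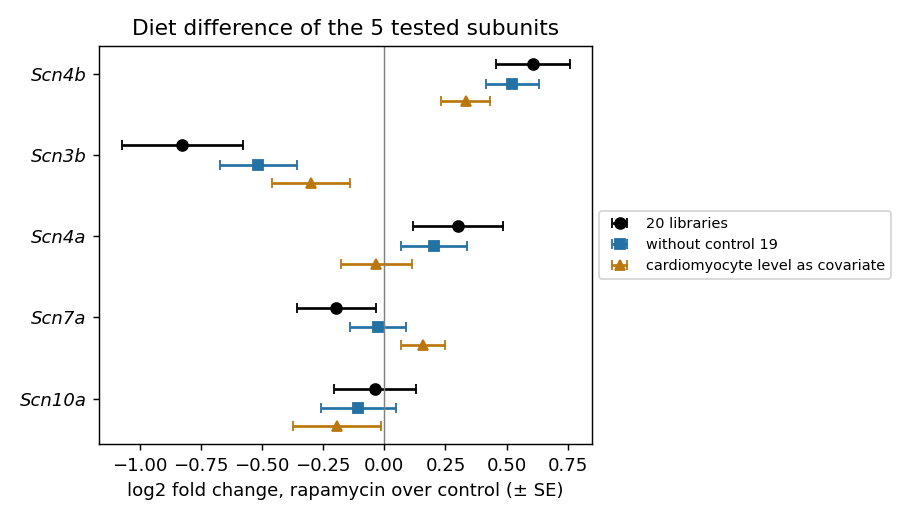
Log2 fold change of rapamycin over control (horizontal axis, ± SE) for the 5 tested subunits with 20 libraries, without control 19, and with the cardiomyocyte level as a covariate. Scn4b stays above 0 in all 3 fits (0.61, 0.52 and 0.33), Scn3b below 0, and Scn4a and Scn7a change sign with the covariate.

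Per base of exon the subunits kept nearly the same order in every heart. Exon lengths were taken from GENCODE M21, another build than the authors', so these levels are approximate. In controls the median per kilobase was 19.4 CPM for Scn4b, 9.63 for Scn7a, 4.82 for Scn4a, 0.845 for Scn3b, 0.449 for Scn10a and 0.0242 for Scn2b. With rapamycin it was 27.7, 8.47, 5.72, 0.600, 0.451 and 0.0423 CPM per kilobase, in the same order of genes. Scn4b exceeded Scn7a per kilobase in 19 of 20 libraries, the exception being control 19 (7.72 against 20.4 CPM per kilobase). Control 19 was also the exception for Scn4a over Scn3b, and rapamycin 6 for Scn3b over Scn10a. The ranges of Scn3b (0.584 to 1.30 CPM per kilobase in controls without control 19) and Scn10a (0.297 to 0.706) overlapped between hearts, although Scn3b was above Scn10a within 19 of 20 libraries. The ranges of the other neighbours in the order did not overlap in those controls.

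Because exon length cancels in the change of a ratio, Scn4b was also set against the other subunits within each library. The log2 ratio of Scn4b to Scn3b was 4.06 ± 1.10 in controls, or 4.37 ± 0.515 without control 19, and 5.39 ± 0.429 with rapamycin (SD, n = 10, 9 and 10), and 9 of 10 controls lay below every rapamycin library. That to Scn4a was 1.57 ± 0.224 in controls and 1.89 ± 0.265 with rapamycin, with 4 rapamycin libraries above every control. That to Scn7a was 0.29 ± 0.881 in controls, or 0.54 ± 0.418 without control 19, and 1.11 ± 0.460 with rapamycin, a mean difference of 0.82, or 0.57 without control 19, with 4 rapamycin libraries above every control. That to Scn10a was 4.55 ± 0.596 and 5.19 ± 0.250, and no rapamycin library exceeded the highest control. Of these pairs, Scn4b and Scn3b moved apart by the most, by 1.33 in the mean log2 ratio, or 1.01 without control 19. This largely restates their fold changes given above, where Scn3b missed the threshold.

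Within the diet groups Scn4b and Scn4a varied together. After each group's mean log2 CPM was subtracted, their Pearson correlation over the 19 libraries without control 19 was 0.70 (Spearman 0.71), and 0.88 with all 20. Those of Scn4b with Scn3b, Scn7a and Scn10a were -0.29, -0.37 and -0.29 over the 19, and the other 6 pairs lay between -0.35 and 0.42. These values describe libraries that share depth and scaling, and with control 19 several pairs moved far, such as Scn4b and Scn3b to -0.71.

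**Figure D4:**
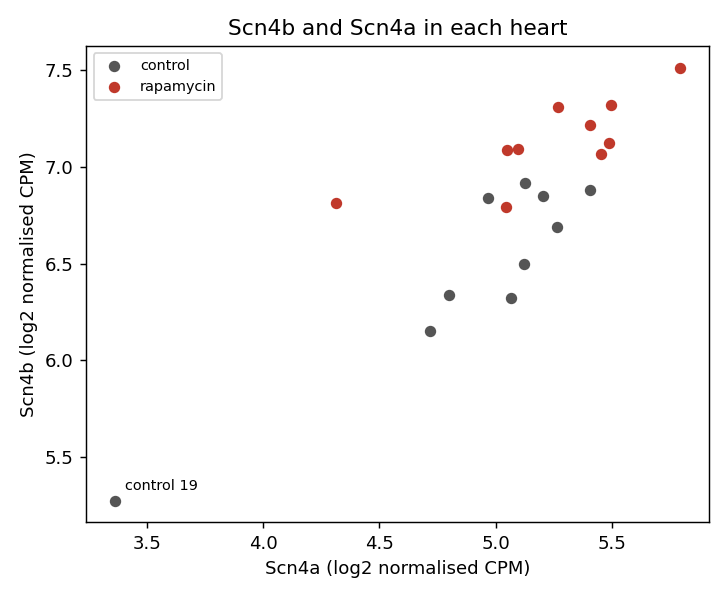
Scn4b against Scn4a in each heart, both in log2 normalised CPM, coloured by diet. Hearts with more Scn4a also had more Scn4b, with a within-group Pearson correlation of 0.70 over 19 libraries, and control 19 was lowest in both.

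By the same measure, among 13041 genes averaging 2 CPM or more, those most like Scn4b were Itga7, the muscle laminin receptor subunit (0.86), 1300010F03Rik (0.84) and Rgma, a co-receptor for bone morphogenetic proteins (0.84). Itga7 also rose (0.42 ± 0.12, adjusted p = 0.0462 by edgeR, 0.0143 without control 19), though it stayed past the threshold only in 7 of 20 leave-one-out fits, and not with upper-quartile scaling, no filter or the cardiomyocyte covariate. Most like Scn4a were Cpt2 of the carnitine shuttle (0.87), the ADP-ribosyltransferase Art5 (0.86) and the dehydrogenase Dhrs4 (0.85). Their Spearman correlations with Scn4a were lower, at 0.78, 0.75 and 0.71. Rapamycin 5 was the lowest library of its group for Scn4a, Cpt2 and Dhrs4, and its part in these correlations was not tested. Art5 rose (0.65 ± 0.15, adjusted p = 0.0215 by edgeR) and stayed past the threshold in all 20 leave-one-out fits, but not with the cardiomyocyte covariate. Among those most like Scn7a were the guidance molecule Sema3d (0.88) and Kcnt2, a sodium-activated potassium channel (0.88), neither of them called. Those of Scn3b were Lrrc41 (0.83), the sialyltransferase St3gal1 (0.82) and the fatty acid elongase Elovl5 (0.79), and those of Scn10a were Ap2b1, Cenpf and Ssbp2 (0.75, 0.73 and 0.73). With all 20 libraries Ap2b1 and Scn10a had a correlation of 0.25, and Kcnt2 and Scn7a of 0.46. The genes named were picked as the highest of 13041 correlations for a subunit. How high unrelated genes would reach in such a search was not tested.

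The rest of the sodium channel genes gave no called gene. Of 7 further genes of the family, 3 passed the filter. The embryonic and neuronal subunit Scn3a stood at -0.30 ± 0.30 (SE, adjusted p = 0.584 by edgeR), or 0.11 (0.809) without control 19, where it reached 10.4 CPM against 1.67 to 4.17 in the other controls. The neuronal Scn2a1 stood at -0.23 ± 0.27 (0.667). Scn9a, next to Scn7a on chromosome 2, had at most 5 reads in a library, and Scn11a, next to Scn10a on chromosome 9, at most 2. Tmprss4, the protease gene on the other side of Scn4b, was at 13.6 CPM in control 19 and at most 0.678 in the other controls. None of the 4 genes beside Scn3b and Scn4a was called.

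Partners of the channel, the proteins that anchor, modify or recycle it, included 1 gene that rose out of 18 tested, with 16 values above 0 and a median of 0.10. This was Cdh2, the N-cadherin of the intercalated disc, at 194 ± 48.2 CPM on the control diet and 277 ± 30.4 on rapamycin (SD over 10 hearts each, log2 fold change 0.51 ± 0.14, adjusted p = 0.0407 by edgeR, 0.00640 without control 19). It stayed past the threshold in 8 of 20 leave-one-out fits, and missed it with no filter (0.0544) and with the cardiomyocyte covariate (0.0837). None of 10 genes of sodium transport was called (median 0.06), the nearest being the mitochondrial sodium-calcium exchanger Slc24a6 (-0.24 ± 0.08, adjusted p = 0.0815 by edgeR). None of 17 tested transcription factors of the conducting and working heart was called (median 0.10), with Id2 at -0.52 ± 0.18 (0.0949) and Mef2a at 0.28 ± 0.10 (0.117).

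Of the cell types of the heart, nodal and conduction markers gave 1 lower gene of 8 tested, the pacemaker calcium channel subunit Cacna1d (-0.61 ± 0.17, adjusted p = 0.0467 by edgeR). Of these 8 values 4 lay above 0 and 4 below, with a median of 0.01, or 0.09 without control 19. Cacna1d stayed past the threshold in 5 of 20 leave-one-out fits. It missed the threshold with no filter, without the 4 libraries with lung transcripts and with the cardiomyocyte covariate. It also missed it without control 19 (0.0670), where Cacna1g, another pacemaker calcium channel named after its value was seen, rose instead (0.48 ± 0.13, 0.0364). Of 6 atrial markers all had values below 0 (median -0.51) and none was called. Of 10 macrophage markers 9 fell, with and without control 19. The cardiomyocyte genes Myl2 (0.47 ± 0.16, adjusted p = 0.104 by edgeR) and Pln (0.32 ± 0.13, 0.142) missed the threshold, and Myl2 passed it without control 19 (0.0430) and under DESeq2 (0.0462). None of 10 endothelial and none of 9 smooth muscle and pericyte markers was called with 20 libraries. Without control 19 none of the former and 2 of the latter rose, Abcc9 (0.36 ± 0.08, adjusted p = 0.0157 by edgeR) and Kcnj8 (0.24 ± 0.06, 0.0277). These 2 genes, which can form a potassium channel together, were named after their values were seen. Both were lowest in control 19, at 110 and 20.6 normalised CPM. Of the 9 smooth muscle and pericyte values, 7 lay above 0 and 2 below with 20 libraries. Their median was 0.15, or 0.11 without control 19.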

How the data were processed

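Poly(A) RNA of 20 hearts was read in pairs of 50 bp (Illumina HiSeq 2000). Per the design text, the authors kept reads with 1 site in MGSCv37 and up to 2 mismatches. Aligner, counter and strand setting: not given in the sources used here. The submitters' processing notes list edgeR, with no version or purpose. The authors deposited raw read counts per gene symbol, and CPM of 700 genes, of which 696 had a symbol found among those counts. For these 696 the CPM equal the counts divided by the column total within 2.77e-05 CPM. The column of rapamycin 4 lacks 1 letter of its sample title.

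Counts were tested with edgeR 4.0.16 in R 4.3.3: default filter by expression, TMM, quasi-likelihood test of diet in all 20 libraries with no covariate, Benjamini-Hochberg adjustment over all genes tested and a threshold of 0.05. Each SE of an edgeR fit is the size of the log2 fold over the root of the F statistic, and that of DESeq2 is the one it reports. Values of log2 CPM use a prior count of 2. Totals of 7039514 to 12458309 limit precision most for the low counts of Scn2b, Scn3b and Scn10a. Replicates are animals, per the design text. Alternatives were DESeq2 1.42.0, other scalings and filters, libraries left out, and a cardiomyocyte covariate. That covariate without control 19 was added after seeing the data. Lists are described by counts and medians. The scripts were tested on simulated data. The members and lists were chosen with earlier results of these data known.

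Genes named in the text are the 6 members, their neighbours on the chromosome, up to 4 called genes (or the 2 with the smallest p) of each list, and the 3 most alike genes of each tested member. Of the genes this rule gives, those without a bearing on the members are counted only. Some genes that the rule or the lists give are not reported here. Older symbols were matched through RefSeq synonyms for GRCm38.p6.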

Additional observations from a re-analysis of the deposited data

Results flagged for a closer look

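In 21 cases 1 library lay far from the other 9 of its diet group, out of 94 groups of 10 looked at, and 14 of the 21 were control 19. The rule used gives about 1 in 20 by chance for independent groups with normally distributed values. These groups share libraries, so their number cannot be set against that rate. In that library, in normalised CPM, Scn3b (15.9), Scn7a (150), Scn3a (10.4), Tmprss4 (13.6) and Elovl5 (118) lay above the other controls. Scn4a (10.1), Cdh2 (77.5), Myl2 (1650), Pln (612), Itga7 (61.3) and Cpt2 (83.1) lay below them. So did its mean log2 CPM of the cardiomyocyte markers (10.1) and of the channel's partners (4.55), while that of the endothelial markers (7.64) lay above. Control 19 also held the lung transcripts given with the results, and their part in these values was not tested.

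In rapamycin 5, which had the lowest Scn4a and the highest Scn7a of its group, Cpt2 (125 CPM) and Dhrs4 (46.0) lay below the other rapamycin libraries and the macrophage level (5.65 on the log2 scale) above them. Scn9a stood at 0.527 CPM in rapamycin 4, which is 5 reads. Cenpf stood at 76.1 CPM in rapamycin 12. The atrial level was low in rapamycin 8 (5.44 on the log2 scale), and the Schwann cell level was high in rapamycin 9 (3.36).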

How the results depend on the processing

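No paired analysis was possible because each library number occurs in 1 diet group. The number of the 6 subunits called was 1, and 2 under DESeq2 or without scaling factors, 0 with the cardiomyocyte level as a covariate, with or without control 19, and 0 to 2 when 1 library was left out. Over all genes it was 469, against 969 with DESeq2, 1332 without scaling factors, 280 without the libraries with lung transcripts, 71 with the covariate, 23 with the covariate and without control 19, and 165 to 791 when 1 library was left out. The subunits' direction held for Scn4b and Scn3b in every fit run. With the covariate Scn4a (-0.032), Scn7a (0.16), Scn3a (0.34), Elovl5 (0.023), Sema3d (0.018) and Ap2b1 (0.0022) changed sign. With the covariate and without control 19 Scn7a (0.24), Scn3a (0.16), Scn2a1 (0.063), Sema3d (0.26), Kcnt2 (0.12) and Ap2b1 (0.015) did. Scn3a also did so without the libraries with lung transcripts (0.018), and Lrrc41 (-0.021) and Ssbp2 (-0.061) did without scaling factors. When 1 library was left out, Scn10a ranged from -0.106 to 0.0428, turning positive in 4 fits, and Scn3a from -0.397 to 0.112, turning positive without control 19. The cause of these changes was not tested. At 0 to 3 reads of Scn2b per library, depth limits any statement on it.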
